A study of Mus musculus with 29 samples.

Results

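The 10 genes described are Cdkn1a, Mdm2, Ccng1, Bax, Phlda3, Eda2r, Trp53inp1, Zmat3, Aen and Bbc3, picked by name as p53 targets from the 50384 gene symbols measured. All 10 were found, and all 10 averaged 1 or more over all libraries, the minimum for testing. Whole blood was sequenced as globin-cleared, ribosome-depleted total RNA, with 1 library per animal. The animals were male mice with the genotype label LJ, all sampled at day 120. The groups were mice given 11.35 Gy to the upper body with the outcome Live (n = 10), mice given the same dose with the outcome Die (n = 9), and sham-irradiated mice (n = 10, dose 0 Gy), which all have the outcome Live. Age, the day of death and any treatment beside irradiation were not stated in the labels. Values are those the authors deposited and are called normalised counts here. The labels do not describe how they were scaled.

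The transcription factor p53 coordinates the response of cells to DNA damage. Ionising radiation activates the kinase ATM, which stabilises p53, and p53 then binds DNA at pairs of short half-sites and raises genes that stop the cell cycle, trigger apoptosis or feed back on p53 itself. In blood cells of mice this response is strong within hours of exposure, and its genes are used as blood markers of recent irradiation. The data here ask how the same genes stood in blood long after the exposure, at day 120, and whether they differed by outcome.

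In 3 libraries (sham replicate 1, Die replicate 2 and Die replicate 14) between 506 and 828 of 11519 expressed genes were listed at 0, against at most 220 in any other library, and several results are also given without them. The share of each library taken by the 7S RNA genes Rn7s1 and Rn7s2 was 27.4% ± 9.34 (SD, n = 10) in Live, 14.2% ± 10.8 (SD, n = 9) in Die and 17.9% ± 6.57 (SD, n = 10) in sham animals. The summed level of monocyte markers lay between 19766 and 46490 normalised counts in Live, 25330 and 49501 in Die and 40291 and 80480 in sham animals, with 8 of 8 markers below 0 in both irradiated groups against sham. Of the monocyte markers 2 passed the limma test for all irradiated animals against sham, 4 did for Live and 0 for Die animals. Of all genes tested 0.0165%, 0.0411% and 0% passed in that order. Platelet markers were above 0 for 5 of 6 in Live against sham and below 0 for 6 of 6 in Die against Live, with 0 passing in either. Over all genes tested 50.4% were above 0 in Live against sham, 51.5% in Die against sham and 50.3% in Die against Live. Lung epithelium markers, which blood should lack, were near 0. They summed to at most 10.9 normalised counts in Live (median 0.647), 36.7 in Die (median 0) and 6.17 in sham animals (median 0), and the 36.7 came from Die replicate 14, one of the 3 libraries. In whole blood, fewer cells of a type and less RNA per cell cannot be told apart. Whether shifts in blood cell types take part in the values below was not tested. A fit with the levels of 5 marker lists as covariates was run, without the NK cell and platelet markers. The monocyte level in it, a mean of log2 values, itself averaged 10.8 in Live, 11.1 in Die and 11.9 in sham animals. That fit therefore cannot cleanly separate marker level from irradiation.

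Of the 10 genes, 5 carry at least 1 match to the p53 half-site consensus within 250 bases before to 50 bases after an annotated RefSeq start (GRCm38.p6, the C57BL/6J reference). The consensus is a palindrome, so a match on either strand is found by reading the other. The table held starts for 8 of the 10 genes, and 8.36% of its 32851 windows hold such a match. The matches are shown because p53 binds DNA at pairs of such half-sites, and capitals mark the half-site matches. A single match is not a pair, and whether p53 binds at any of them was not tested. For Cdkn1a the whole window of 300 bases is printed, since it was the only window among those of the 8 genes with 2 matches, which 0.359% of all windows hold. For the others 60 bases around the match are given.

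Cdkn1a (chr17:29090729-29091028, plus strand): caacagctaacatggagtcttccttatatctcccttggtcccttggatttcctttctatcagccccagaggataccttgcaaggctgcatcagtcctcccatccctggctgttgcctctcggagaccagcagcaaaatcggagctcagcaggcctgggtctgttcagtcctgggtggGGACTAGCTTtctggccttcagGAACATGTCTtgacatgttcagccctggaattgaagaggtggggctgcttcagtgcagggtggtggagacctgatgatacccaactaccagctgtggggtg
Mdm2 (chr10:117710910-117710969, minus strand): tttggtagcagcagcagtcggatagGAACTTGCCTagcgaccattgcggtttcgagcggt
Ccng1 (chr11:40755437-40755496, minus strand): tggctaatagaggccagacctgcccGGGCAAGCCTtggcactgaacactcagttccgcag
Bax (chr7:45467065-45467124, minus strand): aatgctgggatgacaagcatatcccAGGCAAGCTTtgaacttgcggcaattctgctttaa
Aen (chr7:78895912-78895971, plus strand): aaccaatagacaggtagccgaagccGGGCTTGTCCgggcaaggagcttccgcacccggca

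In Cdkn1a the matches begin at -73 and -51 relative to the upstream start, and its second annotated start had none. The match of Mdm2 begins at -186, that of Ccng1 at -185 and that of Bax at -201. In Aen, 1 match lies in the windows of both annotated starts. No match was found in the windows of Phlda3, Eda2r and Bbc3, which says only that these letters are not in those windows. The annotated gene bodies lie, on GRCm38 in GENCODE M21, on chromosome 17 from 29090976 to 29100727 (Cdkn1a), chromosome 10 from 117688875 to 117710758 (Mdm2), chromosome 11 from 40748552 to 40755311 (Ccng1) and chromosome 7 from 45461697 to 45466898 (Bax). Bbc3 and Aen also lie on chromosome 7, from 16308393 to 16318205 and from 78895854 to 78911209. Phlda3 is on chromosome 1 (135766119 to 135769136), Zmat3 on chromosome 3 (32334792 to 32366014), Trp53inp1 on chromosome 4 (11156431 to 11174379) and Eda2r on chromosome X (97333840 to 97377216). All 10 are protein-coding.

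None of the 10 genes differed between groups past the threshold, an adjusted p under 0.05 by limma with Benjamini-Hochberg adjustment over 24310 genes. For irradiated against sham 0 of 10 members passed, where 0.0165% of all genes tested did. For Live against sham it was 0 of 10 beside 0.0411% (0.00411% higher, 0.037% lower). It was also 0 of 10 in Die against sham and in Die against Live, each beside 0%. At an unadjusted p under 0.05, limma gave 0 members for irradiated against sham, beside 7.4% of all genes. In Live against sham it gave 2 higher members, Bbc3 and Eda2r, and 0 lower ones, beside 7.68% of all genes (3.76% higher, 3.93% lower). In Die against sham it gave 0 higher and 2 lower members, Phlda3 and Bax, beside 8.67% of all genes (4.13% higher, 4.54% lower). In Die against Live it gave 0 higher and 2 lower members, Bbc3 and Phlda3, beside 10.3% of all genes (5.02% higher, 5.32% lower). All 10 genes overlapped between groups in all 4 comparisons. Non-overlapping groups were seen for 0% of all genes in irradiated against sham and for 0.00823% in each of the other comparisons.

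**Figure D1:**
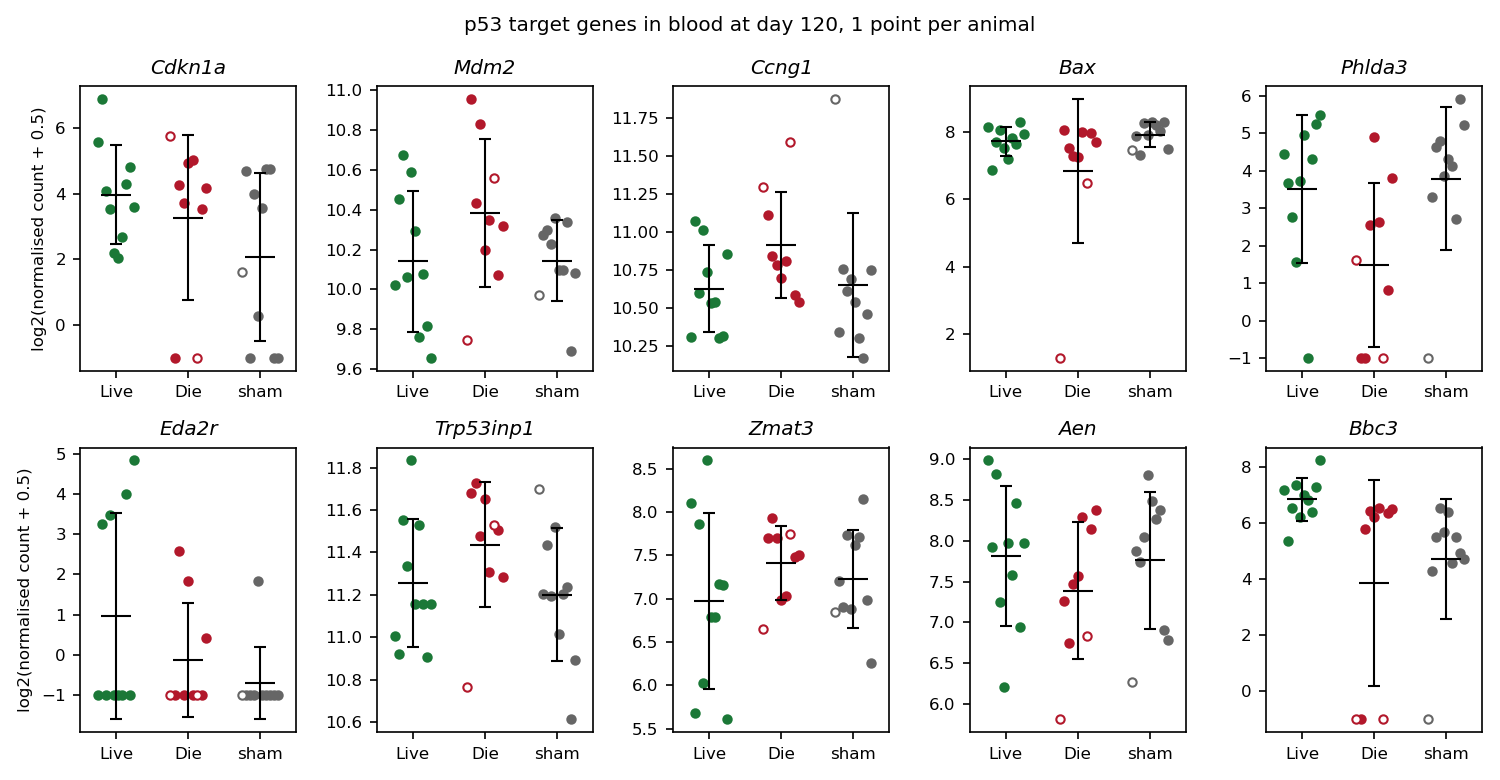
Level of each of the 10 genes on the log2(normalised count + 0.5) scale (y axis, range set per gene) in Live, Die and sham animals, with 1 point per animal, open for the 3 libraries with many genes at 0, and the mean with SD in black. Points at -1 are libraries in which the gene is listed at 0, as for Bbc3 in 3 Die animals and 1 sham animal.

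Among the arrest genes, Cdkn1a encodes p21, the inhibitor of cyclin-dependent kinases through which p53 halts the cell cycle. It was scarce in blood. Its lowest, median and highest values were 3.65, 14.1 and 118 normalised counts in Live, 0, 17.6 and 53.1 in Die and 0, 6.98 and 26.6 in sham animals. The gene was listed at 0 in no Live animal, in 2 Die animals (replicates 3 and 14) and in 3 sham animals (replicates 3, 9 and 10). Values above the highest sham animal were found in 3 Live animals (replicates 1, 5 and 18) and 3 Die animals (replicates 2, 11 and 12), and Live replicate 5, at 118, stood far above the others. The log2 change was 1.91 ± 1.01 (SE, 95% interval -0.15 to 3.96, limma adjusted p = 0.702) for Live against sham. It was 1.20 ± 1.04 (SE, 95% interval -0.91 to 3.32, adjusted p = 0.746) for Die against sham. Both intervals include 0.

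Ccng1 encodes cyclin G1, which recruits a phosphatase to Mdm2 and is a widely used marker of p53 activity in mouse tissues. Its levels were 1264, 1517 and 2158 normalised counts (lowest, median, highest) in Live, 1488, 1792 and 3087 in Die and 1153, 1526 and 3759 in sham animals. The 3 highest values of all, 3759, 3087 and 2512, came from the 3 libraries with many genes at 0. By limma the log2 change was -0.02 ± 0.17 (SE, 95% interval -0.38 to 0.33) for Live against sham and 0.27 ± 0.18 (SE, 95% interval -0.10 to 0.63) for Die against sham, with adjusted p of 1 and 0.687. Without the 3 libraries Ccng1 averaged 1611 ± 327 (SD, n = 10) in Live, 1756 ± 241 (SD, n = 7) in Die and 1475 ± 209 (SD, n = 9) in sham animals.

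Mdm2, the ubiquitin ligase that p53 induces and that degrades p53 in return, was measured tightly. Levels averaged 1159 ± 288 normalised counts (SD, n = 10) in Live, 1377 ± 354 (SD, n = 9) in Die and 1141 ± 151 (SD, n = 10) in sham animals. The lowest to highest ranges, 806 to 1636 in Live, 858 to 1986 in Die and 827 to 1313 in sham animals, overlapped throughout. Its log2 change was -0.0033 ± 0.16 (SE, 95% interval -0.32 to 0.32) in Live animals and 0.24 ± 0.16 (-0.09 to 0.57) in Die animals, each against sham, and 0.24 ± 0.16 (-0.08 to 0.57) between Die and Live. The limma adjusted p values were 1, 0.687 and 0.607 in that order. Values above the highest sham animal occurred in 3 Live and 4 Die animals, and 1 Live animal lay below the lowest sham animal.

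Bbc3, among the death genes, encodes Puma, a BH3-only protein that sets Bax and Bak free and is needed for much of the radiation-induced death of lymphocytes and blood progenitors. It gave the smallest unadjusted p of the 10 genes. In Live animals its levels, from replicate 1 to replicate 19 in the labels' numbering, were 145, 41.4, 92.3, 167, 74.0, 130, 114.5, 85.0, 158 and 303 normalised counts. In Die animals they were 0, 0, 54.7, 87.4, 73.7, 93.0, 0, 82.2 and 90.4, and in sham animals 0, 19.3, 45.5, 93.1, 50.7, 85.2, 23.7, 44.7, 30.6 and 25.9. All 10 Live animals lay above the sham median of 37.7, and 6 of 10 lay above the highest sham animal. Of the Die animals 6 of 9 lay above the sham median, 0 above the highest sham animal and 3 were listed at 0. The log2 change was 2.13 ± 1.001 (SE, unadjusted p = 0.0406, limma adjusted p = 0.615) for Live against sham. In Die animals against sham it was -0.85 ± 1.03 (SE, adjusted p = 0.829), and in Die against Live animals -2.98 ± 1.03 (SE, 95% interval -5.07 to -0.89, unadjusted p = 0.00651, adjusted p = 0.371).

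With the 3 libraries with many genes at 0 left out, the log2 change of Bbc3 was 1.49 in Live animals and -0.09 in Die animals against sham, and -1.59 in Die against Live animals. The 4 libraries in which Bbc3 was listed at 0 were also the 4 with the lowest 7S RNA share, 2.73% in sham replicate 1, 3.02% in Die replicate 14, 4.97% in Die replicate 2 and 5.78% in Die replicate 3. With the 7S share as a covariate the log2 change was 0.47 for Live against sham and -0.65 for Die against Live. Among the 25 libraries above 0, Bbc3 with group means removed was positively correlated with the 7S share (Pearson r = 0.50, permutation p = 0.00516, and Spearman rho = 0.412, permutation p = 0.0352, n = 25). Without the 2 libraries farthest from the median share r was 0.360. Within groups r was 0.825 in the 10 Live animals, 0.350 in the 6 Die animals and 0.122 in the 9 sham animals above 0. This relation was looked for after the values were seen, and 10 relations with the 7S share, 1 per gene, were computed. Of the other 9 genes, Phlda3 passed on rho alone (rho = 0.521, adjusted permutation p = 0.0266, and r = 0.473, adjusted permutation p = 0.0508, n = 29), and its r was 0.405 without the 2 farthest libraries and 0.321 without the 3 with many zeros. Ccng1 passed on both measures (r = -0.588, adjusted permutation p = 0.00375, and rho = -0.506, adjusted permutation p = 0.0266, n = 29), and its r was -0.649 without the 2 farthest libraries and -0.381 without the 3 with many zeros. Mdm2 passed on neither measure (r = -0.384, adjusted permutation p = 0.168, and rho = -0.380, adjusted permutation p = 0.150, n = 29). Its r was -0.258 without the 2 farthest libraries and -0.636 without the 3 with many zeros. Within groups the r of Mdm2 was -0.732 in Live, -0.378 in Die and 0.449 in sham animals. Whether the 7S share takes part in the difference between groups was not tested beyond the covariate fit.

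**Figure D2:**
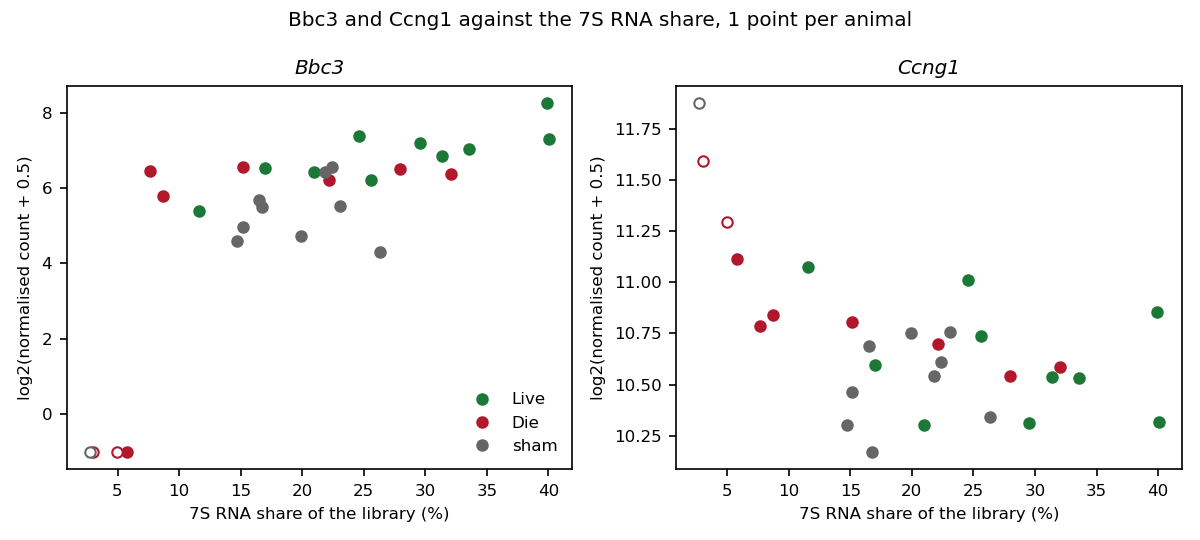
Level of Bbc3 (left) and Ccng1 (right) as log2(normalised count + 0.5) on the y axis against the 7S RNA share of the library in percent on the x axis, 1 point per animal, open for the 3 libraries with many genes at 0. The 4 libraries at the bottom of the Bbc3 panel have shares between 2.73% and 5.78%.

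Bax, the pore-forming protein of the outer mitochondrial membrane, had 116, 216 and 312 normalised counts (lowest, median, highest) in Live, 1.96, 182 and 268 in Die and 159, 250 and 312 in sham animals. Its lowest value, 1.96, came from Die replicate 2. By limma the log2 change was -0.19 ± 0.51 (SE, adjusted p = 0.978) for Live against sham and -1.07 ± 0.52 (SE, unadjusted p = 0.0472, limma adjusted p = 0.571) for Die against sham. Without the 3 libraries with many genes at 0 the Die against sham value was -0.28, with levels of 210 ± 48.3 (SD, n = 7) in Die and 255 ± 57.6 (SD, n = 9) in sham animals. Without Die replicate 2 alone it was -0.38.

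Phlda3 encodes a small protein that blocks the kinase Akt by competing for membrane lipids. It was scarce, with 0, 16.1 and 44.5 normalised counts (lowest, median, highest) in Live, 0, 2.55 and 29.2 in Die and 0, 18.2 and 60.03 in sham animals. Of the Die animals 8 of 9 lay below the sham median, against 5 of 10 Live animals. The gene was listed at 0 in 1 Live animal, 3 Die animals and 1 sham animal. The log2 change was -2.31 ± 0.97 (SE, 95% interval -4.28 to -0.33, unadjusted p = 0.0234, limma adjusted p = 0.526) for Die against sham, -0.27 ± 0.95 (SE, adjusted p = 0.991) for Live against sham and -2.04 ± 0.97 (SE, adjusted p = 0.470) for Die against Live. With the 3 libraries left out the Die against sham value was -2.50. For Die against Live it was -0.63 with the 7S share as a covariate.

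Eda2r, a receptor for ectodysplasin A2 of the tumour necrosis factor receptor family and a p53 target in mouse tissues, was close to undetected. It was above 0 in 4 of 10 Live animals, with 9.12, 10.6, 15.6 and 28.1 normalised counts in replicates 5, 7, 17 and 19. In Die animals 3 of 9 were above 0, with 5.47, 3.08 and 0.826, and in sham animals 1 of 10, with 3.07. By limma the log2 change was 1.68 ± 0.78 (SE, unadjusted p = 0.0390, limma adjusted p = 0.609) for Live against sham and 0.59 ± 0.80 (SE, adjusted p = 0.852) for Die against sham.

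Aen, a nuclease that p53 induces and that helps to degrade DNA in apoptosis, averaged 259 ± 140 normalised counts (SD, n = 10) in Live, 192 ± 97.7 (SD, n = 9) in Die and 247 ± 120 (SD, n = 10) in sham animals. Each group held a wide range, from 73.5 to 507 in Live, 55.6 to 333 in Die and 76.9 to 448 in sham animals. Its log2 change was 0.05 ± 0.36 (SE) for Live against sham and -0.37 ± 0.37 (SE) for Die against sham, with limma adjusted p of 1 and 0.789. Both were below 0 without the 3 libraries with many zeros, at -0.11 and -0.23.

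Trp53inp1 encodes a nuclear and autophagic protein that promotes the activation of p53. It averaged 2496 ± 557 normalised counts (SD, n = 10) in Live, 2818 ± 509 (SD, n = 9) in Die and 2403 ± 509 (SD, n = 10) in sham animals. Of the Die animals 8 of 9 lay above the sham median, the exception being Die replicate 2 at 1739, against 4 of 10 Live animals. The log2 change was 0.05 ± 0.15 (SE, 95% interval -0.25 to 0.36) for Live against sham and 0.24 ± 0.15 (SE, 95% interval -0.07 to 0.54) for Die against sham, with limma adjusted p of 0.980 and 0.680. Without the 3 libraries with many zeros the Die against sham value was 0.37, at a limma adjusted p of 0.427. Zmat3, a zinc finger protein that binds RNA and regulates splicing, averaged 156 ± 110 (SD, n = 10) in Live, 176 ± 47.9 (SD, n = 9) in Die and 160 ± 63.1 (SD, n = 10) in sham animals. Its log2 change was -0.25 ± 0.33 (SE) for Live against sham and 0.19 ± 0.34 (SE) for Die against sham, with adjusted p of 0.933 and 0.897.

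**Figure D3:**
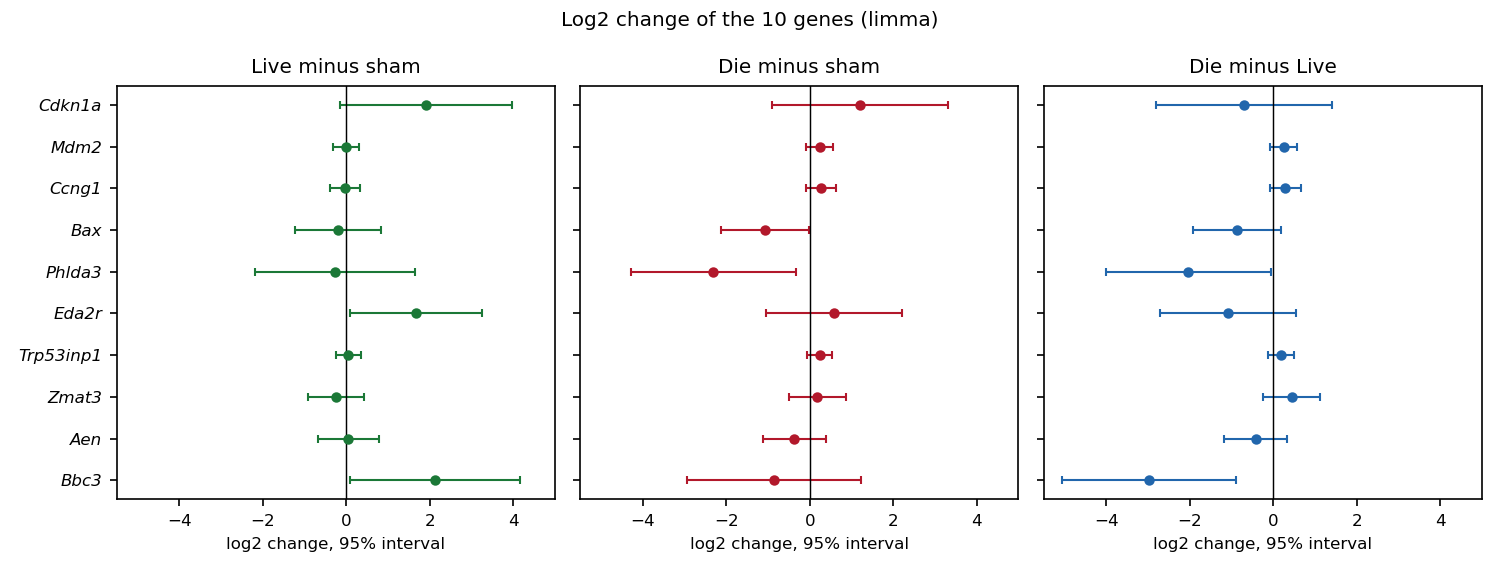
Log2 change (x axis) of the 10 genes with its 95% interval from limma, for Live and for Die animals minus sham and for Die minus Live. Mdm2, Ccng1 and Trp53inp1 have the narrowest intervals, and the 4 genes often listed at 0 (Cdkn1a, Phlda3, Eda2r and Bbc3) the widest.

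The precision differed sharply among the genes. For Mdm2, Ccng1 and Trp53inp1 the irradiated against sham log2 changes were 0.12, 0.12 and 0.14, and no bound of their 95% intervals went beyond -0.19 or 0.43. For Cdkn1a, Phlda3, Eda2r and Bbc3 the SE lay between 0.68 and 0.88. Their irradiated against sham log2 changes were 1.55, -1.29, 1.13 and 0.64 in that order, with adjusted p between 0.763 and 0.907. The irradiated against sham value of Bbc3 lay between 0.0041 (without sham replicate 1) and 0.945 when single libraries were dropped. It was 0.70 once the 3 libraries with many zeros were removed, and 0.14 after adjustment for the 7S share. Over the 10 genes the median log2 change was 0.12 for irradiated against sham, beside 0.02 over all genes tested. It was 0.03 in Live animals against sham, beside 0.01, and 0.21 in Die animals against sham, beside 0.02. Between Die and Live it was -0.56, beside 0.0017, with 6 of 10 genes below 0. Without the 3 libraries with many zeros this median was -0.07, beside 0.04 over all genes, and it was -0.14, beside 0.12, in the fit with the 7S covariate.

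For each animal the number of the 10 genes above the sham median was counted. It lay between 2 and 7 in Live animals (median 5.5) and between 2 and 7 in Die animals (median 6), and between 2 and 8 in sham animals (median 5). After removal of group means, the 45 gene pairs had a median Pearson r of 0.07, and 29 of 45 were above 0. The r of 7 pairs passed an adjusted permutation p under 0.05 and the rho of 3 pairs did, with 1 pair in both. That pair was Phlda3 and Trp53inp1 (r = -0.513, adjusted permutation p = 0.0440, and rho = -0.595, adjusted permutation p = 0.0437, n = 29), whose r was -0.467 without the 2 libraries farthest from the median of Phlda3 and -0.497 without the 3 with many zeros. Mdm2 and Trp53inp1 had r = 0.510 (adjusted permutation p = 0.0440, rho = 0.435, adjusted permutation p = 0.132), and 0.480 without the 3 libraries. Since the 4 libraries with Bbc3 at 0 stand apart, no pooled r is given for its pairs, and that of Ccng1 and Bbc3 was -0.294 without the 3 libraries. When the 3 libraries were left out 0 of 45 pairs passed.

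Other genes of the pathway were taken from lists. Of the 38 other p53 targets 37 were tested, and 0 passed in any of the 4 comparisons by limma. The smallest adjusted p values were 0.120 for Live against sham and 0.160 for irradiated against sham. Apaf1, the scaffold of the apoptosome, lay below the sham median in 10 of 10 Live and 9 of 9 Die animals. It averaged 630 ± 167 normalised counts (SD, n = 10) in Live, 693 ± 135 (SD, n = 9) in Die and 1008 ± 215 (SD, n = 10) in sham animals. Its log2 change was -0.62 ± 0.15 for irradiated against sham (SE, adjusted p = 0.160) and -0.69 ± 0.17 for Live against sham (SE, adjusted p = 0.120). Dram1, a lysosomal membrane protein of autophagy, averaged 113 ± 47.3 (SD, n = 10) in Live, 179 ± 65.7 (SD, n = 9) in Die and 246 ± 75.5 (SD, n = 10) in sham animals (Live against sham -1.16 ± 0.28, SE, adjusted p = 0.124). Plxnb2, a semaphorin receptor, was at -0.94 ± 0.31 on the log2 scale (SE, adjusted p = 0.392) for irradiated against sham.

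Above the sham median in 10 of 10 Live and 9 of 9 Die animals was Ckap2, a spindle-associated protein, with 184 ± 88.6 normalised counts (SD, n = 10) in Live, 156 ± 62.3 (SD, n = 9) in Die and 89.2 ± 77.9 (SD, n = 10) in sham animals. Its log2 change was 1.10 ± 0.29 for irradiated against sham (SE, adjusted p = 0.205). Polk, a translesion DNA polymerase, was above the sham median in 9 of 9 Die animals (log2 change against sham 0.94 ± 0.29, SE, adjusted p = 0.471). Gtse1, a G2 and S phase protein that binds p53, had a Die against Live log2 change of -3.13 ± 0.95 (SE, adjusted p = 0.348), and was listed at 0 in 4 of 9 Die animals, 0 of 10 Live and 1 of 10 sham animals. Ercc5, a nuclease of nucleotide excision repair, had a Die against Live value of 0.43 ± 0.20 (SE, adjusted p = 0.465). At an unadjusted p under 0.05, irradiated against sham had 3 higher and 4 lower of the 37, beside 3.45% and 3.95% of all genes. The list median was -0.01 for irradiated and 0.10 for Live animals against sham. It was -0.06 for Die animals against sham and -0.21 for Die against Live. When the 3 libraries were left out the medians were 0.06 for irradiated, 0.08 for Live and 0.06 for Die animals against sham, so those of irradiated and of Die animals turned sign, and -0.13 for Die against Live. Without the 3 libraries with many zeros Apaf1 (-0.60, adjusted p = 0.0481) and Plxnb2 (-1.14, adjusted p = 0.0465) passed for irradiated against sham, where 0.255% of all genes passed. In Live against sham Apaf1, Dram1, Plxnb2 and Sulf2 then passed downward, where 0.473% of all genes passed.

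Of p53 and its 16 listed regulators 15 of 17 were tested and 0 passed by limma. Trp53 itself, which is controlled mostly at the protein level, had 167, 289 and 395 normalised counts (lowest, median, highest) in Live, 40.0, 170 and 346 in Die and 0, 306 and 621 in sham animals. Only 1 of 9 Die animals lay above the sham median, against 5 of 10 Live animals. By limma the log2 change was 0.63 ± 0.74 (SE, adjusted p = 0.921) in Live animals and -0.21 ± 0.76 (SE, adjusted p = 0.957) in Die animals, each against sham. It was -0.84 ± 0.76 (SE, adjusted p = 0.702) between Die and Live animals. Trp53 was listed at 0 in sham replicate 1. In the fit without the 3 libraries with many zeros its log2 change by limma was -0.31 ± 0.22 (SE, adjusted p = 0.661) in Live animals, with the sign turned, and -0.91 ± 0.24 (SE, adjusted p = 0.235) in Die animals, each against sham, and -0.60 ± 0.24 (SE, adjusted p = 0.537) between Die and Live.

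The damage kinase genes Atm and Atr had their lowest group means in Live animals. Atr averaged 521 ± 127 normalised counts (SD, n = 10) in Live, 897 ± 275 (SD, n = 9) in Die and 660 ± 228 (SD, n = 10) in sham animals, with a Die against Live log2 change of 0.76 ± 0.20 (SE, unadjusted p = 0.000548, adjusted p = 0.348). Atm averaged 1512 ± 609 (SD, n = 9) in Die and 942 ± 389 (SD, n = 10) in Live animals (log2 change 0.68 ± 0.26, SE, adjusted p = 0.393), and 1460 ± 783 (SD, n = 10) in sham animals. Hipk2, a kinase that phosphorylates p53, had a log2 change of 0.84 ± 0.26 for Die against sham (SE, adjusted p = 0.471) and lay above the sham median in 8 of 9 Die and 8 of 10 Live animals. Usp7, which removes ubiquitin from p53 and Mdm2, lay above it in 9 of 9 Die animals (0.34 ± 0.12 against sham, SE, adjusted p = 0.510). Mdm4, the partner of Mdm2, had 0.37 ± 0.16 for Die against sham (SE, adjusted p = 0.526). The checkpoint kinase gene Chek2 had 0.58 ± 0.28 and Rchy1, a ubiquitin ligase for p53, 0.29 ± 0.15 for Live against sham (SE, adjusted p = 0.637 and 0.708). The acetyltransferase gene Crebbp had 0.56 ± 0.24 for Die against Live (SE, adjusted p = 0.436). The median of the 15 genes was 0.33 in Die against sham and 0.32 in Die against Live animals, with 13 and 11 of 15 above 0, where 51.5% and 50.3% of all genes tested were above 0. At an unadjusted p under 0.05, 5 of 15 were higher in Die against sham, beside 4.13% of all genes.

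**Figure D4:**
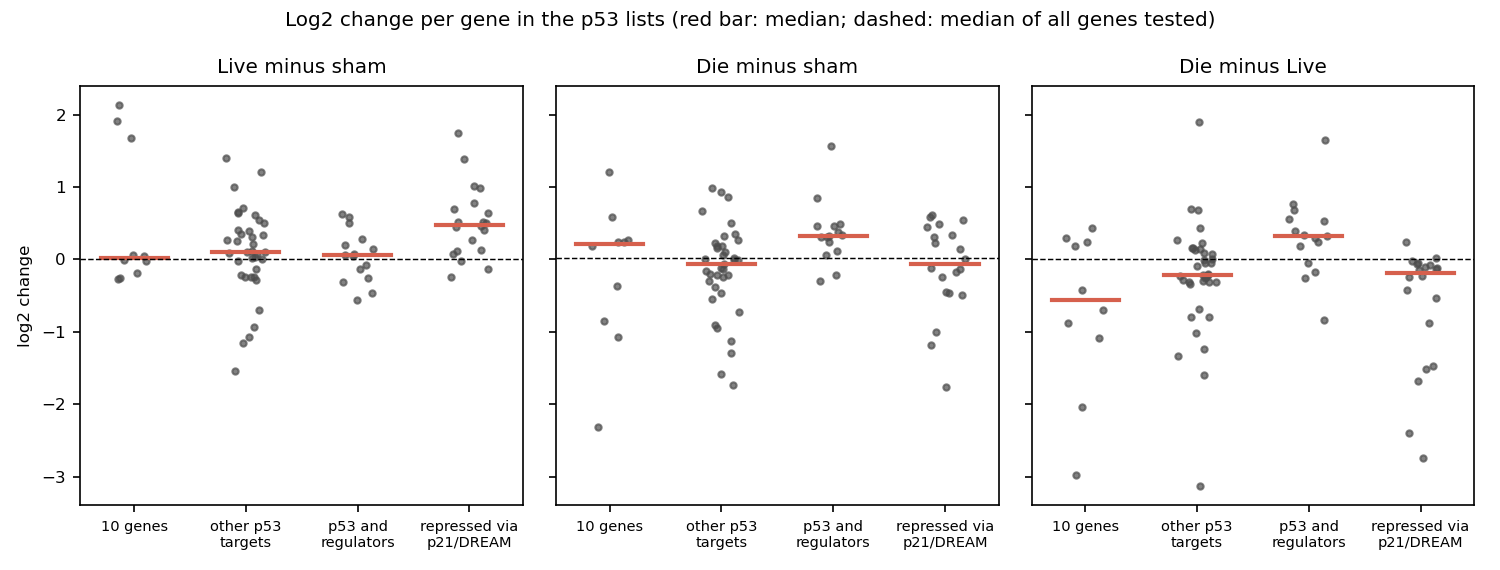
Log2 change per gene (y axis) in 4 lists, the 10 genes, other p53 targets, p53 with its regulators and genes repressed through p21, for Live and for Die animals minus sham and for Die minus Live. Red bars are list medians, such as 0.33 for the regulators in Die minus sham, and the dashed line is the median of all genes tested.

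Mitotic and replication genes that p53 represses through p21 and the DREAM complex are the remaining list. All 20 were tested and 0 passed by limma in any comparison. Their median was 0.48 for Live against sham, with 17 of 20 above 0, beside a median of 0.01 and 50.4% above 0 over all genes. It was -0.06 for Die against sham, with 10 of 20 above 0, beside 0.02 and 51.5%. Between Die and Live it was -0.19, with 18 of 20 below 0, beside 0.0017 and 50.3% above 0. With the 3 libraries left out the medians were 0.57, 0.09 and -0.35, so that of Die against sham turned sign. Rrm2, a subunit of ribonucleotide reductase, had a log2 change of 0.65 ± 0.25 for irradiated against sham (SE, adjusted p = 0.488). Cdc20, an activator of the anaphase-promoting complex, had -2.39 ± 0.83 for Die against Live (SE, adjusted p = 0.371), and -1.31 without the 3 libraries. The mitotic kinase genes Plk1 and Cdk1 had -2.74 ± 1.05 and -1.68 ± 0.69 for Die against Live (SE, adjusted p = 0.397 and 0.424), and the cyclin gene Ccnb1 -1.47 ± 0.74 (SE, adjusted p = 0.494), or -0.51 without the 3 libraries. For irradiated against sham Kif23, a motor of cytokinesis, had 0.48 ± 0.25 (SE, adjusted p = 0.692), the spindle checkpoint kinase gene Bub1 0.66 ± 0.38 (SE, adjusted p = 0.765) and the topoisomerase gene Top2a 0.40 ± 0.24 (SE, adjusted p = 0.777). Plk1 was listed at 0 in 5 of 9 Die, 1 of 10 Live and 3 of 10 sham animals, and Cdc20 in 3 of 9 Die animals and in none of the other animals.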

How the data were processed

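RNA from whole blood of 29 mice was sequenced with 1 library per animal. The deposited values were treated as a signal, a normalised count per gene in each library, since their scaling is not described. The build GRCm38 and the tools kallisto 0.44.0, bcl2fastq 2.19, DESeq2 and sleuth were used by the authors, per the submitters' processing notes. In which order and for what is not given in the sources used. Between 1.90% and 15.8% of a library's values above 0 were whole multiples of its most frequent value (tolerance 0.01). Read counts were therefore not recovered, the read depth is unknown, and no count model was used.

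Values were taken as log2(value + 0.5), and 24310 genes averaging 1 or more were fitted with limma 3.58.1 (R 4.3.3, trend, two-sided) as 3 group means over all libraries. The p-values were adjusted by Benjamini-Hochberg over all genes tested, with a threshold of 0.05. Irradiated means the equally weighted mean of Live and Die. The added 0.5 shrinks fold changes between low values above 0. Values listed at 0 enter as -1, so for genes with such values the log2 change can exceed the change in means or differ in sign. Bbc3 averaged 53.5 normalised counts in Die and 41.9 in sham animals, though its Die against sham log2 change was negative. Relations between genes used values with group means removed and 100000 permutations within groups, adjusted over 45 pairs. On simulated data for irradiated against sham (22153 genes, 200 changed) the fit recovered 52% of genes changed by log2 1 and 84% of those changed by log2 2. The 200 genes were drawn from those averaging 50 or more, so Cdkn1a, Phlda3 and Eda2r could not be among them. Both rates cover the 200 genes together and are not split by expression level above that minimum. They do not give the power for Cdkn1a, Phlda3, Eda2r and Bbc3, whose SE lay between 0.68 and 0.88. Figures and descriptions used matplotlib 3.10.9, pandas 2.3.3 and numpy 2.4.6 in Python 3.11.15.

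The named genes are the 10 members and, of each wider list, the 4 with the smallest unadjusted p in each comparison. Members and lists were chosen with earlier results of these data known. The labels do not say that replicate numbers shared between groups pair the animals. The correlations of same-numbered libraries lay between -0.08 and 0.01, so no effect shared by them was seen. The animals were treated as unpaired. Alternatives were other pseudocounts (1 and 5), no filter or a minimum mean of 50, quantile normalisation, array weights, the 7S share or the levels of 5 marker lists (monocyte, neutrophil, T cell, B cell, erythroid) as covariates, leaving out 1 library or the 3 libraries with many zeros, and a replicate block. The list values without the 3 libraries were added after seeing the data.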

Additional observations from a re-analysis of the deposited data

Results flagged for a closer look

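Of 30 groups of values, 1 per gene and group, 5 had a highest sample set apart by a Dixon test at the 95% level. For normally distributed values chance flags about 1 in 20 groups. The values tested were not log-transformed and some were 0, so that rate may not hold here. Cdkn1a was 118 normalised counts in Live replicate 5, with the next Live animal at 47.0. Bbc3 was 303 in Live replicate 19, with the next at 167. Phlda3 was 29.2 in Die replicate 11, with the next Die animal at 13.6. Ccng1 was 3759 in sham replicate 1, a library with many genes at 0, with the next sham animal at 1728. Eda2r was 3.07 in sham replicate 5 and listed at 0 in the other sham animals, which by itself fixes the flag.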

How the results depend on the processing

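Over 40 settings 0 of the 10 genes passed wherever they were tested. At a minimum mean of 50, Cdkn1a, Phlda3 and Eda2r were not tested, and the fits on numbers 1 to 10 cover only irradiated against sham. The lowest adjusted p by limma was 0.165 (Phlda3, Die against sham, without sham replicate 1). The counts over all genes moved more. For irradiated against sham 4 genes passed, against 10 with a minimum mean of 50, 481 with array weights, 21 when the 7S share was a covariate, 0 with 5 marker levels as covariates, 62 without the 3 libraries with many zeros, and 1 to 66 with 1 library left out (66 without sham replicate 1, and 1 without sham replicate 4, 5, 6 or 7). For Live against sham 10 passed, against 40 with a minimum mean of 50, 716 with array weights, 0 with marker covariates, 115 without the 3 libraries, and 5 to 50 with 1 library left out (50 without sham replicate 10, 41 without sham replicate 1, 39 without Live replicate 17). For Die against sham 0 passed, against 8 with array weights and 0 to 20 with 1 library left out. For Die against Live it was 0 to 1 with 1 library left out. Of the other p53 targets, 6 passed with array weights in irradiated against sham and 6 in Live against sham, 2 and 4 without the 3 libraries, and 1 (Apaf1) for Live against sham with a minimum mean of 50. In both comparisons with array weights Apaf1, Dram1, Plxnb2 and Sulf2 were lower, and Ckap2 and Pvt1 were higher. Those passing without the 3 libraries, and Apaf1 at a minimum mean of 50, were lower. With 1 library left out the number of other p53 targets passing ranged from 0 to 1 for irradiated, 0 to 3 for Live and 0 to 1 for Die animals against sham. Of 45 gene pairs 7 passed, against 3 with a pseudocount of 5 and 0 without the 3 libraries. The cause of these moves was not tested.

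Signs that turned belonged to log2 changes that did not pass. With marker covariates, irradiated against sham became -0.015 for Mdm2, -0.15 for Ccng1, -0.053 for Trp53inp1 and 0.25 for Zmat3. Live against sham became 0.056 for Phlda3, -0.18 for Trp53inp1, 0.081 for Zmat3 and -0.16 for Aen, Die against sham -0.0021 for Ccng1, and Die against Live 0.0096 for Cdkn1a. With the 7S share, Live against sham became 0.12 for Mdm2, 0.21 for Ccng1 and -0.22 for Aen, and Die against Live -0.039 for Ccng1. With array weights, Live against sham became 0.039 for Ccng1 and -0.19 for Aen, Die against sham 0.042 for Bbc3 and Die against Live 0.082 for Cdkn1a. With quantile normalisation, Live against sham became 0.016 for Mdm2 and 0.0070 for Ccng1. Without the 3 libraries it became 0.11 for Ccng1 and -0.11 for Aen. With 1 library left out, Zmat3 ranged from -0.14 to 0.069 for irradiated against sham. In Live animals against sham Mdm2 ranged from -0.063 to 0.051, Ccng1 from -0.075 to 0.11, Phlda3 from -0.80 to 0.24, Trp53inp1 from -0.011 to 0.11 and Aen from -0.11 to 0.23.

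With the replicate block over numbers 1 to 10, 0 genes passed for irradiated against sham, and 0 for the same animals without the block, with Zmat3 at 0.075 in both. The median correlation of same-numbered pairs was -0.05, 0 of them were over 0.1, and 0 sham libraries correlated best with their own number. The block changed no call among the 10 genes for irradiated against sham.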
